A study of Mus musculus with 13 samples.

Results

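Junctions on mouse chromosome 15 within 1 Mb of the c-myc breaks, but outside the windows around the breaks themselves, were examined in 7 libraries. High-throughput genome-wide translocation sequencing (HTGTS) reads the DNA that has joined to one fixed break, the bait. Each line of the deposited tables is one such junction, and the joined DNA is called prey. The bait was a break made by I-SceI, a nuclease with a long recognition site, in a cassette at c-myc. A junction was a member where its prey lay on chromosome 15 between positions 60808880 and 62933263 (mm9). Left out were the bait window, 61808880 to 61828880, and the stretch that covers the partner windows of both genotypes, 61904760 to 61933263. This choice gave 507 members among 9577 junctions of the c-myc libraries (5.29%), in a series of 16455 junctions and 13 libraries. The members were chosen by the measured position of each junction around peaks of junction counts in these same tables, so positions, distances and shares are described without a test.

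The B-cell group held 3 libraries, numbered 14, 36 and 37, of splenic B cells of genotype c-myc25-2xI, activated with anti-CD40 and IL-4. The fibroblast group held 4 libraries, numbered 1 to 4, of tail fibroblasts transformed with SV40, of genotype c-myc25xI;RosaI-SceI-GR, without activation. The labels name an I-SceI-GR allele at Rosa for the fibroblasts and no source of I-SceI for the B cells. They do not say whether libraries came from separate mice, cultures or clones, so p-values measure only the spread between these libraries, which may be technical. Cell type, genotype, I-SceI supply and sequencing run changed together between both groups and cannot be told apart. The tables hold DNA junctions and no expression, so the labelled cell types were not checked against markers.

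A double-strand break can be rejoined to its own other end, or its ends can be joined to another break. Joining is most frequent between sequences that lie close together on one chromosome. Myc encodes a transcription factor that drives growth, and Pvt1, the long noncoding RNA gene that follows it, is a known site of rearrangement in lymphoid tumours. The region was therefore described in 3 stretches. They are the 75.879 kb between both breaks, the 1 Mb flank beyond the bait on the lower-coordinate side, and the 1 Mb flank beyond the partner break on the higher-coordinate side. A + strand junction has prey that runs from the junction to higher coordinates, and a - strand junction has prey that runs to lower ones. On the partner's side of the bait, + strand prey thus runs away from the bait and - strand prey runs back towards it.

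Depth ranged from 878 to 2918 junctions in the B-cell libraries and from 562 to 980 in the fibroblast libraries. Members numbered 188, 188 and 57 in B-cell replicates 14, 36 and 37, and 21, 23, 17 and 13 in fibroblast replicates 1 to 4. Precision in the fibroblasts is therefore limited by small counts. Intervals for single libraries are Wilson intervals at 95%, and these and the limits for a count of 0 cover counting error only, since PCR reads carry no molecular identifiers here. In the 6 IgH libraries, whose bait was on chromosome 12, 11 of 6878 junctions lay on chromosome 15 and 0 were in the region, which allows a share of up to 0.0436%. The limits of those libraries singly were 0.111% to 0.775%.

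B-cell replicate 14 stood apart from the rest. Among its members, 153 of 188 (81.4%) had prey whose far end, the end away from the junction, read GG, against 12.8% and 14% in the other B-cell libraries and at most 7.69% in the fibroblasts. On other chromosomes the share in replicate 14 was 76.3%. In that library 62 of 188 members (33.0%) shared their far end with another member, and as many as 6 shared a single one. Its prey alignments were also short, with a median of 54 bases against 111.5 and 113 bases in replicates 36 and 37 and 82 to 138 bases in the fibroblasts. The labels give sonication as the means of breaking the DNA in all libraries. The group comparisons of shares, strand and inserted bases are given with and without this library, and other means where it moves them.

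The member sequences that the description turns on are shown first, as the deposited tables give the prey. In each group and stretch, one of the positions with the most lines is shown (among ties, the one in more libraries and then the lowest coordinate), over the first 60 bases from the junction or over the whole prey where it is shorter. Capitals mark bases that the prey shares with the end of the bait. Such shared bases are recorded only in the fibroblast tables.
B cells, between the breaks, + strand, chr15:61869998-61870047: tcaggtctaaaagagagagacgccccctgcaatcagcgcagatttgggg
B cells, beyond the bait, + strand, chr15:61262368-61262428: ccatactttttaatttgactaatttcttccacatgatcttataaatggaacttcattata
B cells, beyond the partner, + strand, chr15:61949737-61949797: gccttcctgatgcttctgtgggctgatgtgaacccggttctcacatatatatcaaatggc
Fibroblasts, between the breaks, + strand, chr15:61843745-61843805: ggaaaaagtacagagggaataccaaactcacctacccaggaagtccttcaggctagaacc
Fibroblasts, beyond the bait, - strand, chr15:61805410-61805470: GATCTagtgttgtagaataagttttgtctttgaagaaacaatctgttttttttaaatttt
Fibroblasts, beyond the partner, + strand, chr15:61933857-61933917: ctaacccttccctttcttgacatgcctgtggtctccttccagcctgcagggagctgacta
The first of these was found in B-cell replicates 14 and 37 and lies at the first junction that carries the Pvt1 label. The fifth was held by 2 lines of fibroblast replicate 1 and belongs to a recurrent site described below. The last was held by 1 line, since no position beyond the partner recurred in the fibroblasts.

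Members were spread over many positions rather than stacked at a few. The 507 lines held 491 combinations of position and strand. Of these, 16 were held by 2 lines each and none by more. A combination was shared by 2 libraries in 2 cases, at 61869998 on the + strand (B-cell replicates 14 and 37) and at 61805466 on the - strand (B-cell replicate 37 and fibroblast replicate 1). None was shared between fibroblast libraries.

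**Figure D1:**
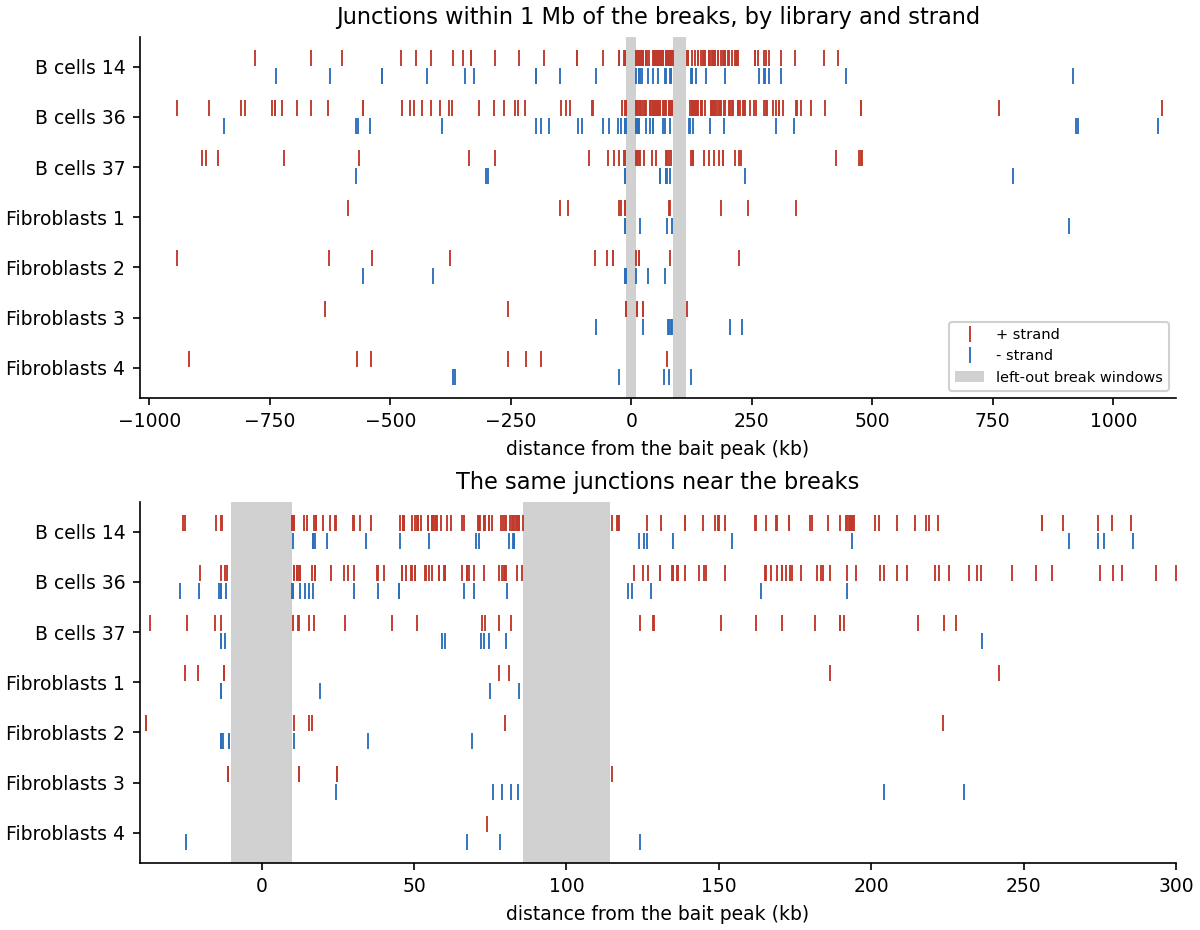
Each tick is 1 junction, placed by its distance from the bait peak in kb, with a row for each library, + strand ticks in red above - strand ticks in blue, and the left-out break windows in grey. The upper panel holds all 507 junctions and the lower one those near the breaks, where + strand ticks outnumber - strand ticks in each of the 3 B-cell rows between the breaks and past the partner window.

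Members made up a larger part of every B-cell library than of any fibroblast library. They were 6.44% (95% interval 5.61 to 7.39), 6.60% (5.74 to 7.57) and 6.49% (5.04 to 8.32) of B-cell replicates 14, 36 and 37. In fibroblast replicates 1 to 4 they were 2.14% (1.41 to 3.25), 2.99% (2.00 to 4.45), 2.74% (1.72 to 4.35) and 2.31% (1.36 to 3.92). The group means were 6.51% ± 0.0785 (SD, n = 3) and 2.55% ± 0.389 (SD, n = 4), and the groups did not overlap. The difference of 3.96 percentage points was 4.0 without B-cell replicate 14.

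The 3 stretches differed in how far the groups lay apart. Between the breaks, B-cell replicates 14, 36 and 37 had 93, 61 and 18 junctions, or 3.19%, 2.14% and 2.05% of their libraries. Fibroblast replicates 1 to 4 had 5, 7, 9 and 3 there, or 0.510%, 0.910%, 1.45% and 0.534%. The means, 2.46% ± 0.632 (SD, n = 3) and 0.851% ± 0.440 (SD, n = 4), belonged to groups without overlap, and the difference of 1.61 points was 1.24 without B-cell replicate 14. That library was the highest of the group in this stretch.

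Beyond the partner the groups lay furthest apart. B-cell replicates 14, 36 and 37 had 63, 71 and 19 junctions in that flank, or 2.16%, 2.49% and 2.16% of their libraries. Fibroblast replicates 1 to 4 had 4, 1, 3 and 1, or 0.408%, 0.130%, 0.484% and 0.178%. The means were 2.27% ± 0.190 (SD, n = 3) and 0.300% ± 0.173 (SD, n = 4), again without overlap. The difference of 1.97 points was 2.03 without B-cell replicate 14.

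Beyond the bait the ranges of both groups crossed. B-cell replicates 14, 36 and 37 had 32, 56 and 20 junctions, or 1.10%, 1.96% and 2.28% of their libraries, and fibroblast replicates 1 to 4 had 12, 15, 5 and 9, or 1.22%, 1.95%, 0.806% and 1.60%. The means were 1.78% ± 0.612 (SD, n = 3) and 1.40% ± 0.492 (SD, n = 4). With all 3 B-cell libraries in, the groups were thus apart between the breaks and beyond the partner but not beyond the bait. Without B-cell replicate 14 the groups no longer overlapped beyond the bait, and the difference rose from 0.384 to 0.726 points.

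**Figure D2:**
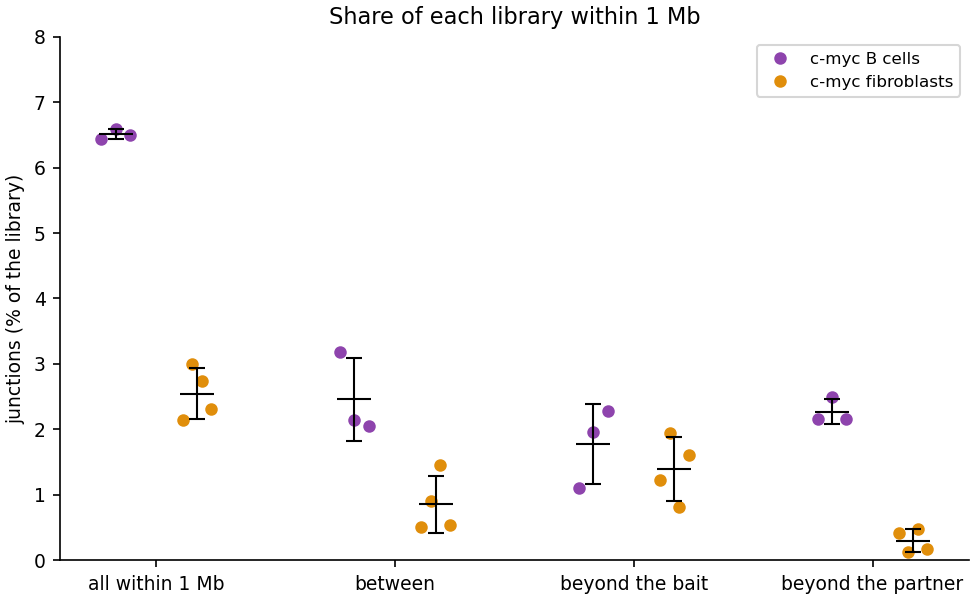
Junctions in the region and in each of its 3 stretches are plotted as percent of the library, with 1 point per library and bars for the group mean ± SD (n = 3 B-cell and n = 4 fibroblast libraries). The groups are apart for the whole region, between the breaks and beyond the partner (2.27% against 0.300%), and overlap beyond the bait (1.78% against 1.40%).

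The window edges do not lie equally far from the partner break in both groups. The partner peak of the B cells was at 61914760, 95.88 kb from the bait peak at 61818880, and that of the fibroblasts was at 61923263, or 104.383 kb away. Coordinates of the B cells were also 172 bp higher than those of the fibroblasts beyond the partner, where 23 words of 24 bases shared by members of both groups lay that far apart. Beyond the bait, 243 shared words lay at an offset of 0 bp. Between the breaks 488 did, and 2 others had an offset of -40567 bp. With each group's own partner window the difference beyond the partner was 2.23 points in place of 1.97, an alternative added after the data were seen.

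Numbers fell off with distance, but not in the same way on each side. Densities are given per kb and per 1000 junctions of the library, by distance from the nearest window edge. Beyond the partner the B-cell density was 0.155 ± 0.0153 (SD, n = 3) in the first 20 kb, 0.110 ± 0.0296 from 20 to 50 kb and 0.140 ± 0.0229 from 50 to 100 kb. From 100 to 200 kb it was 0.0522 ± 0.00708, from 200 to 500 kb 0.0101 ± 0.00532, and in the last 500 kb 0.00216 ± 0.00142. Over the first 3 steps the libraries ranged from 0.0759 to 0.171, and every library was lower past 100 kb than in any of those steps. In the fibroblasts that flank held 2, 0, 2, 3, 1 and 1 junctions in the same steps.

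Beyond the bait the fall came at once, in both groups. In the first 20 kb the B-cell density was 0.226 ± 0.159 (SD, n = 3) and that of the fibroblasts 0.259 ± 0.166 (SD, n = 4). Of the 23 B-cell and 17 fibroblast junctions there, 6 and 7 belonged to the recurrent - strand site described below. Densities without that site were not computed. From 20 to 50 kb the values were 0.0369 ± 0.0343 and 0.0325 ± 0.0650. Without replicate 14 the B-cell means of these steps were 0.296 and 0.0497. Past 50 kb no step's mean exceeded 0.0169 in the B cells or 0.0146 in the fibroblasts. At 50 to 100 kb, the B cells therefore had 49 junctions beyond the partner and 5 beyond the bait.

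**Figure D3:**
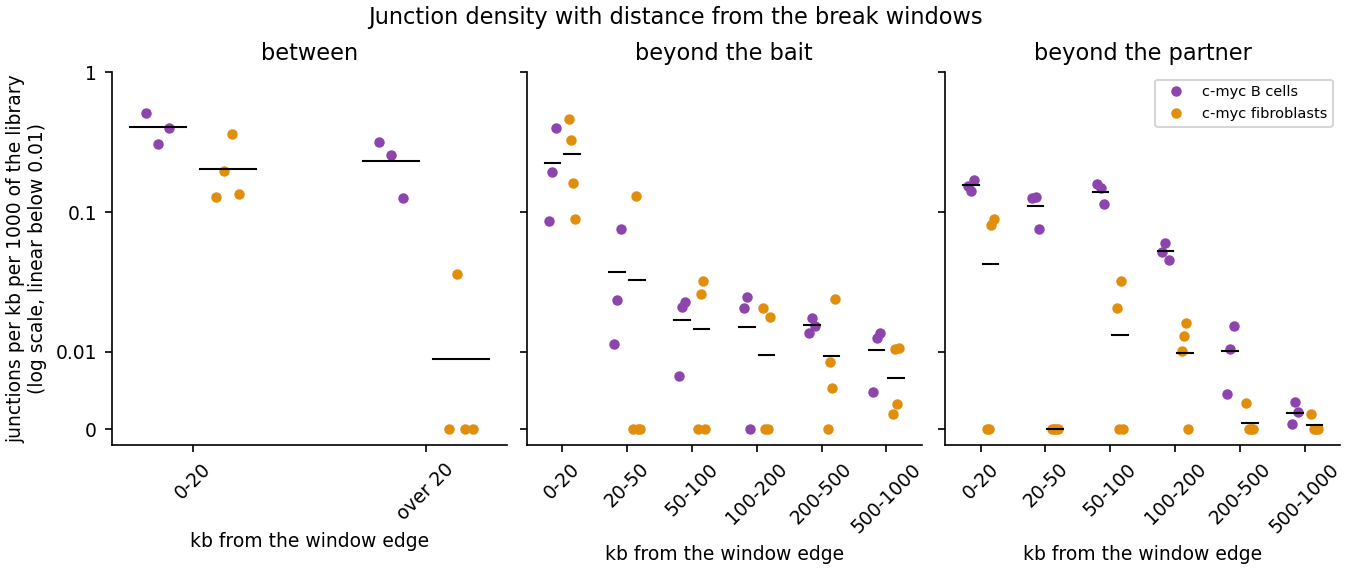
Density of junctions (per kb and per 1000 of the library, log scale that is linear below 0.01) against distance from the nearest window edge in kb, with 1 point per library and a line at each group mean. Beyond the partner the B-cell points stay between 0.0759 and 0.171 up to 100 kb, while beyond the bait the means of both groups fall from over 0.2 to under 0.04 past 20 kb. The first step beyond the bait includes the 13 junctions of the recurrent - strand site described below.

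Between the breaks the B cells had junctions along the whole stretch and the fibroblasts had them near its ends. In steps of 10 kb from the bait window, the B cells had 44, 9, 10, 17, 29, 14, 26 and 23 junctions, the last step being 5.88 kb long. The fibroblasts had 7, 3, 1, 0, 0, 2, 7 and 4. More than 20 kb from either window, the B-cell libraries had 33, 26 and 4 junctions and the fibroblasts 1 in all, in replicate 2. The B-cell density there was 0.232 ± 0.0960 (SD, n = 3), against 0.00906 ± 0.0181 (SD, n = 4) in the fibroblasts. Without replicate 14 it was 0.191. Within 20 kb of a window it was 0.407 ± 0.104 against 0.205 ± 0.110, and there the fibroblast range of 0.128 to 0.363 overlapped the B-cell range of 0.307 to 0.514.

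The fullest windows of 10 kb were between the breaks in the B cells. The window at 61890001 to 61900000, labelled Pvt1, had 31 B-cell junctions (17, 7 and 7 by library) and 7 in the fibroblasts (2, 1, 2 and 2). The window at 61870001 to 61880000, also labelled Pvt1, had 28 in the B cells (17, 9 and 2) and 0 in the fibroblasts. The window at 61830001 to 61840000, with no gene label, had 25 (9, 12 and 4) against 5 (1, 2, 2 and 0). The fullest window of the fibroblasts lay on the other side, at 61800001 to 61810000, with 14 junctions (7, 5, 2 and 0) against 17 in the B cells. Of these, 7 in the fibroblasts and 6 in the B cells belonged to the recurrent - strand site described below.

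At the borders of the region the counts within 1 kb were as follows. Just inside the region at the bait window's edge nearest the partner, the B cells had 20 members, and just outside they had 2 junctions. The fibroblasts had 2 and 1. At the bait window's other edge the B cells had 0 inside and 1 outside, and the fibroblasts 2 and 2. At the partner edge nearest the bait the B cells had 2 and 4 and the fibroblasts 0 and 0, and at the far partner edge the B cells had 1 and 1 and the fibroblasts 1 and 0. Both outer borders had 0 on either side.

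Of the 20 B-cell members in that first kb past the bait window, 14 came from replicate 14, 5 from replicate 36 and 1 from replicate 37. In replicate 14, 13 of the 14 ended in GG, and their junctions differed while their far ends coincided. On the + strand, 4 ended at 61828999 and 6 at 61829126. A - strand fragment also ended at 61828999, coming from the opposite side. These 3 prey fragments of replicate 14 are shown because they carry the shared ends, with the last 2 bases in capitals.
+ strand to the first shared end, chr15:61828934-61828999: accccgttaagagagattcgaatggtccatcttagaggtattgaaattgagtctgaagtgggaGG
- strand to the same end, chr15:61828999-61829052: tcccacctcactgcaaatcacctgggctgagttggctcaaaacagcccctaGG
+ strand to the next shared end, chr15:61829027-61829126: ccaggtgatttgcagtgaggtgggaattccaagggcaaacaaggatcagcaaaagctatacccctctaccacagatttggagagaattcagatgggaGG
The part of fragment ends in the high count of this kb was not tested.

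Strand was not used to choose the members and was compared between groups. In the B cells + strand junctions were in the majority in every library, at 79.3% (149 of 188), 77.1% (145 of 188) and 73.7% (42 of 57) in replicates 14, 36 and 37. In fibroblast replicates 1 to 4 they were 57.1%, 56.5%, 52.9% and 53.8%, or 41 of 74 in all. The groups did not overlap, and the means were 76.7% ± 2.81 (SD, n = 3) and 55.1% ± 2.04 (SD, n = 4). The difference of 21.6 points gave p = 0.0571 in a two-sided exact permutation test, the smallest p that 3 against 4 libraries allow, and 0.114 after Benjamini-Hochberg adjustment over the 6 tests made. Without B-cell replicate 14 the difference was 20.3 points. With every left-out window widened by 10 kb it was 13.3 points, the groups overlapped and the exact permutation p was 0.171.

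Between the breaks the same order held. B-cell replicates 14, 36 and 37 had 83.9%, 77.0% and 66.7% on the + strand there, and fibroblast replicates 1 to 4 had 40.0%, 57.1%, 44.4% and 33.3%. With 137 of 172 junctions against 11 of 24, the means were 75.9% ± 8.66 (SD, n = 3) and 43.7% ± 10.04 (SD, n = 4), without overlap. The difference of 32.1 points had p = 0.0571 by the exact permutation test (adjusted p = 0.114), and was 28.1 without B-cell replicate 14. With windows widened by 10 kb the groups overlapped here too, at 44.8 points with an exact permutation p of 0.171. The means were then 73.9% in the B cells and 29.2% in the fibroblasts. That setting left 42 fibroblast members in the region and a mean fibroblast share of 0.300% between the breaks, so its fibroblast values rest on very few junctions. In the middle of the stretch, over 20 kb from either window, 54 of 63 B-cell junctions were on the + strand.

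Beyond the bait the groups overlapped. The B-cell libraries had 65.6%, 66.1% and 65.0% on the + strand (71 of 108) and the fibroblasts 58.3%, 53.3%, 80% and 66.7% (25 of 41). The means were 65.6% ± 0.538 (SD, n = 3) and 64.6% ± 11.7 (SD, n = 4), with p = 1 in the exact permutation test. Its sign was not stable. The difference of 0.982 points was 0.952 without B-cell replicate 14, and under alternatives given in the closing section it went as low as -7.84.

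Beyond the partner the B cells had 79.4%, 85.9% and 89.5% on the + strand, or 128 of 153. The 9 fibroblast junctions there gave 3 of 4, 1 of 1, 1 of 3 and 0 of 1. At this depth no difference was detectable, with p = 0.343 in the exact permutation test (adjusted p = 0.411) for a difference of 32.8 points. Without B-cell replicate 14 the difference was 35.6 points. Within the flank the B-cell + share varied between steps of distance. It was 14 of 20 in the first 20 kb, 21 of 24 from 20 to 50 kb and 47 of 49 from 50 to 100 kb. From 100 to 200 kb it was 29 of 36, from 200 to 500 kb 15 of 17, and in the last 500 kb 2 of 7.

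In the same B-cell libraries the strands were closer to even on chromosome 15 beyond 1 Mb and on other chromosomes. Junctions inside the left-out break windows were not part of this comparison. On chromosome 15 beyond 1 Mb the + share was 53.0% ± 2.98 (SD, n = 3, 221 junctions), and on other chromosomes 50.7% ± 2.31 (SD, n = 3, 1067 junctions). In each of the 3 libraries the region lay higher than chromosome 15 beyond 1 Mb, by 22.0 to 26.3 points, with a mean of 23.7. The two-sided exact permutation of signs gave p = 0.25, the smallest that 3 libraries allow. Against other chromosomes the mean difference was 26.0 points (22.8 to 28.8), with the same p.

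In the fibroblasts the same differences lay below those of the B cells, which was not tested between groups. The region lay higher than chromosome 15 beyond 1 Mb in 4 of 4 libraries, by 2.94 to 17.8 points with a mean of 8.01 (exact permutation of signs, p = 0.125, the smallest that 4 libraries allow). Against other chromosomes the mean was 3.70 points, with 3 of 4 libraries higher (exact p = 0.375). Within the B cells, beyond the partner exceeded beyond the bait by 19.4 points (13.7 to 24.5, 3 of 3 libraries, exact p = 0.25). The stretch between the breaks exceeded beyond the bait by 10.3 points (1.67 to 18.2, 3 of 3, exact p = 0.25), or by 6.32 without replicate 14. Both differences include the recurrent - strand site beyond the bait described below. Without that site the B-cell mean beyond the bait was 70.6% in place of 65.6%. It was then closer to the 75.9% between the breaks and the 84.9% beyond the partner. Without the site these differences were not computed by library. In the fibroblasts beyond the partner minus beyond the bait was -12.5 points on average (-66.7 to 46.7, 2 of 4 libraries above 0, exact p = 0.75). It rests on 9 junctions beyond the partner, so its sign was not settled. Between the breaks minus beyond the bait was -20.9 points (-35.6 to 3.81, 1 of 4 above 0, exact p = 0.25).

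**Figure D4:**
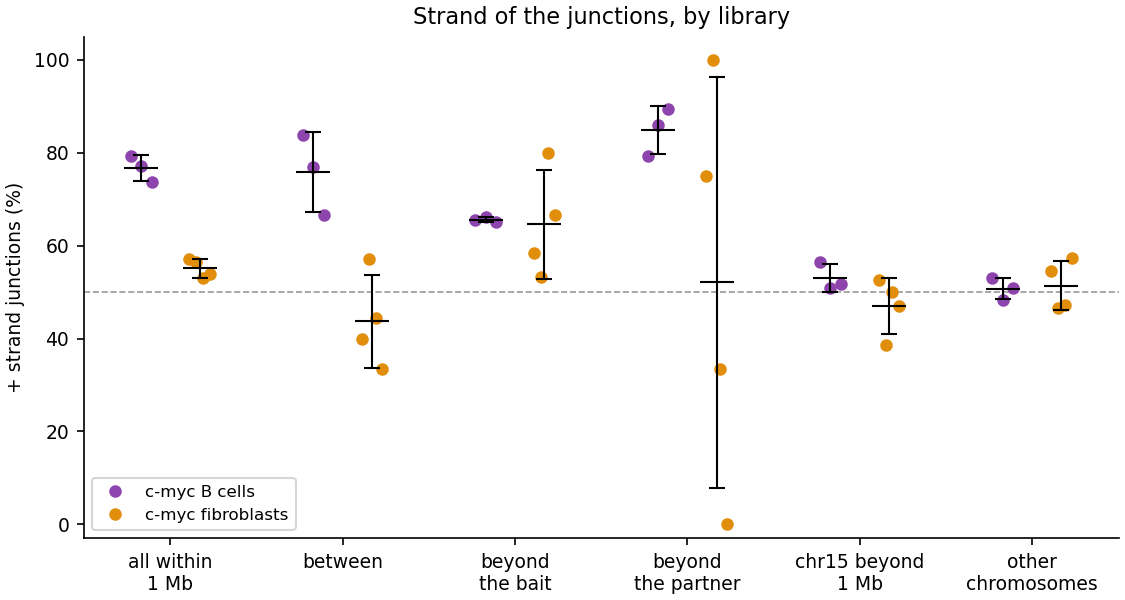
Percent of junctions on the + strand, with 1 point per library, bars for the group mean ± SD (n = 3 and n = 4) and a dashed line at 50%, for the region, its 3 stretches and, for reference, chromosome 15 beyond 1 Mb and other chromosomes. The B cells are at 76.7% in the region and at 53.0% and 50.7% in the reference sets, while the fibroblast values beyond the partner rest on 9 junctions.

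Only 3 gene names appear in the members' gene labels. Pvt1 labelled 219 members, D030024E09Rik labelled 11, and a joint label of Pvt1 and H2afy3 labelled 2, while 275 had none. RefSeq lists Pvt1 and D030024E09Rik as long noncoding RNA genes. It lists H2afy3 as Macroh2a3, a transcribed pseudogene, so the region outside the break windows carried no protein-coding label in these tables. The label is the tables' own, and whether a junction lies in an exon or an intron was not analysed here.

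Labelled members made up 55.3%, 42.0% and 45.6% of those in B-cell replicates 14, 36 and 37, and 28.6%, 13%, 47.1% and 46.2% in fibroblast replicates 1 to 4. The ranges overlapped. The means of 47.7% ± 6.88 (SD, n = 3) and 33.7% ± 16.2 (SD, n = 4) differed by 13.9 points, and by 10.1 points without B-cell replicate 14. The label follows from the position, which chose the members, so no test of it is given.

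Pvt1 labelled 102, 73 and 25 members in B-cell replicates 14, 36 and 37, and 6, 3, 6 and 4 in fibroblast replicates 1 to 4. Its labels ran from 61869998 to 62081811, or 211.813 kb, across the partner windows, and 0 unlabelled members lay inside that span. On the + strand were 88, 65 and 18 of the B-cell junctions (85.5% of 200), and 4, 2, 1 and 1 of the fibroblast junctions (42.1% of 19). Between the breaks the B cells had a + share of 80.9% with the label (72 of 89) and 78.3% without it (65 of 83). Beyond the partner the shares were 89.3% (100 of 112) with a label and 68.3% (28 of 41) without one.

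The stretch beyond the partner where B-cell junctions were dense and the stretch labelled Pvt1 largely coincided. The 148.548 kb from the partner window to the last Pvt1 label held 49, 49 and 14 junctions in replicates 14, 36 and 37, or 0.112 ± 0.00429 per kb and per 1000 (SD, n = 3). The next stretch of the same length held 26 in all, or 0.0203 ± 0.0183. The first stretch of that length beyond the bait held 40, or 0.0490 ± 0.0268. Without replicate 14 these means were 0.112, 0.0177 and 0.0620. In the fibroblasts the same 3 stretches held 7, 1 and 24 junctions, or 0.0168 ± 0.0107, 0.00172 ± 0.00343 and 0.0497 ± 0.0328 (SD, n = 4). Between the breaks, B-cell density was 0.278 ± 0.0741 before the Pvt1 labels and 0.378 ± 0.136 within them (SD, n = 3). By library these were 0.333 and 0.522, 0.307 and 0.252, and 0.194 and 0.360 in replicates 14, 36 and 37. The fibroblast means were 0.0948 ± 0.0969 and 0.133 ± 0.0477 (SD, n = 4). Distance from the break and position within Pvt1 cannot be told apart here, since the Pvt1 labels begin between the breaks and end in that flank.

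D030024E09Rik lies beyond the bait and labelled 11 members between 61532961 and 61599584. B-cell replicates 14, 36 and 37 had 2, 5 and 1, and fibroblast replicates 1 to 4 had 0, 0, 1 and 2. All 11 were on the + strand, against 63 of 100 unlabelled B-cell junctions and 22 of 38 unlabelled fibroblast junctions in the same flank. Those unlabelled junctions include 6 B-cell and 7 fibroblast junctions of the recurrent - strand site described below. From 200 to 500 kb beyond the bait, the step that holds this label, 25 of 31 B-cell and 4 of 7 fibroblast junctions were on the + strand. These counts include the labelled ones. The gene was singled out for its label, and no test was made of its strand. The joint label of Pvt1 and H2afy3 was on 1 junction of B-cell replicate 36 at 62050842 on the + strand and on 1 of fibroblast replicate 3 at 62049235 on the - strand.

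A recurrent site stood out among the - strand junctions beyond the bait. It was looked for after the data were seen, as members on the same strand with gaps of at most 50 bp and at least 3 members. Of 7 such clusters, 1 held both groups. It had 13 junctions between 61805458 and 61805528, 13.41 kb from the bait peak, and 12 of them lay within 27 bp. B-cell replicates 14, 36 and 37 had 0, 3 and 3 of them, and fibroblast replicates 1 to 4 had 5, 2, 0 and 0. The 13 far ends all differed, and 12 of the 13 had their own library and position. The joins differed too, with 5 having no gap between bait and prey, 4 having inserted bases and 4 having bases of the cassette.

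The stretch under this site, put together from the prey in the deposited tables, holds a perfect inverted repeat. It is shown because the site's junctions fall at its near arm, on the - strand and so in the direction of the prey, with both 67-base arms in capitals and the 120-base loop in lower case.
Inverted repeat beyond the bait, - strand, chr15:61805274-61805528: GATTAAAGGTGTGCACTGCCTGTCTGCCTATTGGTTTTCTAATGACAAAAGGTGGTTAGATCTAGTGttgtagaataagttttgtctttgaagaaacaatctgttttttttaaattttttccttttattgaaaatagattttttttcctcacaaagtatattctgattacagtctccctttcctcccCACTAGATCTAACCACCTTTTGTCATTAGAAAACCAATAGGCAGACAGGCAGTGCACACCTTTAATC
The near arm lies at 61805461 to 61805528 and the far arm at 61805274 to 61805341. The near arm begins where the deposited sequence does, so it may be longer. Of the 13 junctions, 10 lay inside the near arm, 2 in the loop and 1 at the arm's outer end. The prey of that last one covers the arm alone, and which arm it came from cannot be told. The near arm past 61805485 rests on that prey, so the arm length of 67 bases holds only if it came from there. The other 12 run into the loop. An inverted repeat with arms of at least 20 bases was found in 2 of 101 members with prey of at least 150 bases, both at this site. Over all c-myc junctions it was found in 3 of 1874, where the one elsewhere had arms of 23 bases. These counts are of repeats within a single prey, whereas the 67-base arms were put together from several. The 2 prey at this site have their junctions at 61805484 and 61805485, so each holds only the inner part of the near arm. The 67 bases are therefore not comparable with the 23 bases elsewhere.

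Prey of 10 of the 13 junctions at this site shared a word of 24 bases with prey on other chromosomes, so the same word occurs elsewhere in the genome. Its part in the placement of these reads was not tested. Without the cluster, chosen as an alternative after the data were seen, the + share of all members differed by 17.5 points between groups in place of 21.6, without overlap. This is a smaller shift than the one with widened windows given above, which leave this site out as well.

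**Figure D5:**
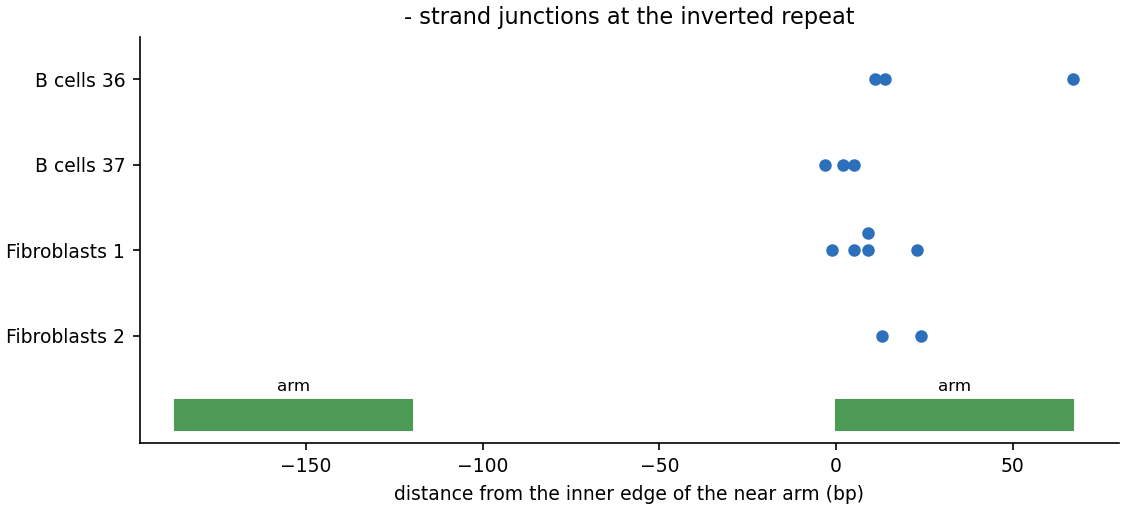
The 13 - strand junctions of the site beyond the bait, placed by distance in bp from the inner edge of the near arm of the inverted repeat, with a row for each library that has any and the 67-base arms as green bars. Points of 1 library at the same position are drawn one above the other, and 12 of the 13 junctions lie within 27 bp around the inner end of the near arm.

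The joins were compared last. A member was counted as having inserted bases where unaligned bases stood between bait and prey on the read without an exact 12-base word of the cassette. A gap with such a word was counted as cassette, whatever else it held. Short or misread pieces of cassette could therefore be counted as inserted. Inserted stretches of 1 to 10 bases made up 73 of 97 in the B cells and 6 of 7 in the fibroblasts. Among B-cell replicates 14, 36 and 37 there were 52, 36 and 9 such members, or 27.7%, 19.1% and 15.8%. Fibroblast replicates 1 to 4 had 3, 1, 1 and 2, or 14.3%, 4.35%, 5.88% and 15.4%. The groups did not overlap, although B-cell replicate 37 (95% interval 8.54 to 27.4) and fibroblast replicate 4 (4.33 to 42.2) lay next to each other. The means of 20.9% ± 6.12 (SD, n = 3) and 9.98% ± 5.66 (SD, n = 4) differed by 10.9 points, with p = 0.0571 in the exact permutation test (adjusted p = 0.114). The difference was 7.49 points without B-cell replicate 14. Prey starts are placed by different rules in the groups. In the B cells 189 members had a gap of exactly 0 and 0 had prey overlapping the bait, against 8 and 22 in the fibroblasts. The effect of this on the count of inserted bases was not tested. The groups overlapped, with an exact permutation p of 0.114, under 3 alternatives. These were 1 junction per position and strand (10.6 points), each genotype's own partner window (10.6) and leaving out prey with a 24-base word found on other chromosomes (13.9).

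By the same 12-base rule, cassette bases stood between bait and prey in 34.6% ± 10.8 of B-cell members (SD, n = 3). In the fibroblasts they did in 50.9% ± 6.77 of members (SD, n = 4). By library the B-cell shares were 22.9%, 44.1% and 36.8% in replicates 14, 36 and 37, so that the mean without replicate 14 was 40.5%. Bases shared by bait and prey at the join, called microhomology, could be read in the fibroblast tables alone. Of 30 fibroblast members with no gap, 8 shared 0 bases, 4 shared 1, 10 shared 2, and 3, 3 and 2 shared 3, 4 and 5. In the B-cell tables all 189 members with no gap had a prey start placed at the end of the bait. Blunt joins and microhomology therefore cannot be separated there and were not compared.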

How the data were processed

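The data are 13 tables of HTGTS junctions from genomic DNA, of which the 7 c-myc tables hold the members and the 6 IgH tables served as background. Per the file headers, a line gives the position, strand, aligned part and gene label of the prey of 1 read. A score for each alignment, deposited by the authors, was looked at but entered no test. The submitters' processing notes name mm9 as the build. Which aligner and which filters were used is not given in the sources used here. End minus start equals the aligned length in 493 of 507 members, so printed starts may be counted from 0, and no mm9 genome was at hand to settle this. Printed sequences come from the deposited tables, and gene types from RefSeq (GRCm38.p6, names only; 3 of 3 names matched).

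Members and gene lists were chosen with earlier results of these data known. Lines were counted as deposited. Groups came from the sample titles. Strand (4 tests) and inserted bases (1 test) were compared over library values by two-sided exact permutation of the difference between group means. The Benjamini-Hochberg adjustment over 6 tests also counts one of the gene label, which is not reported because the label follows from position, and the permutation code was tested on simulated data. Named genes were all labels found, named windows the 3 fullest per group, and sequences those with the most lines per group and stretch. The inverted repeat, the shared far ends and the clusters were described after the data were seen. Alternatives were 1 junction per position and strand, with or without the far end, windows widened by 10 kb, flanks of 0.5 Mb, prey of at least 50 bases and each library left out. Added after the data were seen were each genotype's own partner window, leaving out prey with a 24-base word found on other chromosomes, and leaving out the cluster of - strand junctions. Microhomology was to be compared but was not, because the B-cell tables do not record it. Computations used Python 3.11.15, numpy 2.4.6, pandas 2.3.3, scipy 1.17.1 and matplotlib 3.10.9.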

Additional observations from a re-analysis of the deposited data

How the results depend on the processing

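Differences are B cells minus fibroblasts in percentage points. For the share of junctions in the region (3.96) they were 4.66 with 1 junction per position and strand, 4.58 with the far end added, 3.47 with windows widened by 10 kb and 4.43 with prey of at least 50 bases. For the share beyond the partner (1.97) they were 2.36 and 2.16 by the same counts, without and with the far end, and 2.23 with each genotype's own window. The groups did not overlap in these shares under any of these settings. The + share beyond the bait (0.982) reversed to -7.84 with widened windows, -1.32 with prey of at least 50 bases, -4.14 without prey holding a 24-base word found on other chromosomes and -6.42 without the - strand cluster, with exact permutation p between 0.514 and 0.914. Without 1 library it ranged from -2.77 to 6.12, and was below 0 without fibroblast replicate 1 and without fibroblast replicate 2. The cause was not tested.

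Leaving out 1 library gave 3.83 to 4.11 for the share of the region, 1.24 to 1.81 between the breaks, 0.135 to 0.726 beyond the bait and 1.86 to 2.03 beyond the partner. For the + share it gave 20.3 to 23.1 in the region, 28.1 to 36.7 between the breaks and 15.5 to 48.8 beyond the partner (without fibroblast replicates 4 and 2), for gene labels 7.06 (without fibroblast replicate 2) to 18.4, and for inserted bases 7.49 to 13.4. Beyond the bait the share was 0.135 without B-cell replicate 37, 0.188 without fibroblast replicate 3 and 0.195 with flanks of 0.5 Mb. Widening the windows by 10 kb ended the separation of the groups in the + share of the region (13.3, exact permutation p = 0.171) and between the breaks (44.8, exact permutation p = 0.171), and gave 21.7 for gene labels and 16.6 for inserted bases. Inserted bases overlapped between groups, with an exact permutation p of 0.114, at 1 junction per position and strand, with each genotype's own window and without prey holding a word found elsewhere. The cause of these changes was not tested. No test could pass 0.05 with 3 against 4 libraries, so a p that stayed above it says nothing about stability. No paired analysis was possible because the c-myc B-cell and fibroblast libraries share no replicate number. No library lay far from the other 3 of the fibroblast group in any of 10 measures by Dixon's 95% bound.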
